A study of Mus musculus with 6 samples.

Results

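The data described here are the signals of 8 genes of one transcription factor network. These are the homeobox genes Hoxa5, Hoxa7, Hoxa9, Hoxa10 and Hoxb4 and their partner genes Meis1, Pbx2 and Pbx3. They were chosen by name, with earlier results of these data known. They were read by 12 of the 22626 probe sets of the array (a probe set is a group of short probes for one transcript), in a table that names 12393 genes. The cells were LSK cells, the bone marrow fraction without lineage antigens and with Sca-1 and Kit on the surface, in which blood stem cells and early progenitors are concentrated. They came from mice labelled Gfi1 knockout or wild type, with 3 arrays in each group and the numbers 5, 7 and 8 in both. The labels give no strain, allele, age or sex and do not say whether a sample was 1 mouse or a pool, so a p-value here reflects only how far these samples spread. In each group the RNA was amplified in 2 rounds from 10 ng and read on 1 single-colour array per sample.

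Hox genes encode homeodomain proteins that bind short AT-rich sites, and they lie in clusters named A to D. PBX and MEIS proteins belong to the TALE class of homeodomain proteins and bind DNA together with HOX proteins, which lengthens the site that is read. In bone marrow the HoxA genes and Meis1 are high in stem cells and early progenitors and fall as cells mature, and forced Hoxa9 and Meis1 expression drives myeloid leukaemia in mice. Gfi1 is a zinc finger repressor whose binding site contains the core AATC, and it is known to oppose the Hoxa9 and Meis1 program in myeloid progenitors.

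The targeted gene was read first. Probe set 1417679_at of Gfi1 gave signals of 692, 1163 and 1737 on the knockout-labelled arrays 5, 7 and 8 and of 632, 608 and 723 on the wild-type arrays. It was thus not lower on the arrays labelled knockout, with a log2 difference of 0.76 ± 0.28 (SE, n = 3 per group, limma adjusted p = 0.148). The sources used here do not say if the deletion covers this probe set, so every direction below rests on the labels alone. Differences are given as the knockout-labelled mean minus the wild-type mean of log2(signal + 16), a scale that understates changes of dim probe sets. A call is a Benjamini-Hochberg adjusted p below 0.05 in limma over the 13575 probe sets tested.

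Of the 10 member probe sets bright enough to be tested, 1 was called lower and 0 higher, that of Hoxa5. Over all tested probe sets, 297 were called lower, which is 2.19%, and 196 higher, which is 1.44%. When the fit took the sample number as a block, 2 member probe sets were called lower (Hoxa5 and Hoxa9) and 0 higher, against 3.53% called lower among all tested. The 3 knockout-labelled arrays lay below the 3 wild-type arrays for 4 member probe sets, those of Hoxa5, Hoxa10 and Meis1 and the brighter one of Hoxa9, and above them for 0. The same separation downwards was found for 12.1% of all tested probe sets. Of the 10 differences 8 were below 0, with a median of -0.25, while 51.1% of all tested probe sets were below 0, with a median of -0.01. The 10 probe sets stand for 7 of the 8 genes, and Hoxa7 was read but too dim to test.

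**Figure D1:**
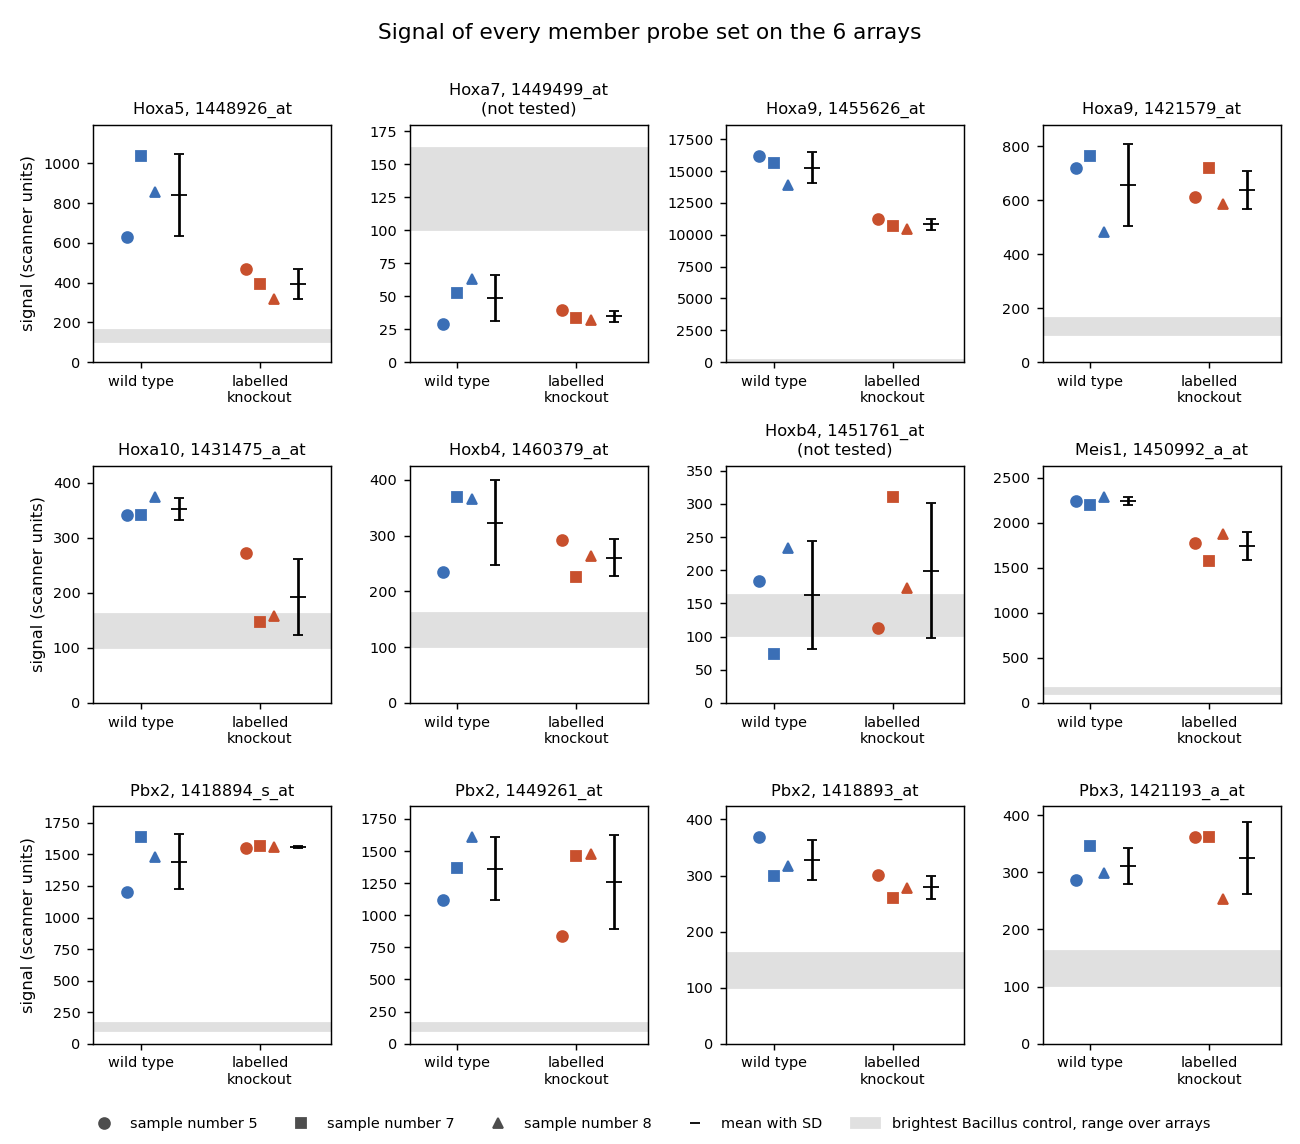
Signal of each member probe set on each array (linear axis from 0, in the arbitrary units of the scanner), wild type at the left and labelled knockout at the right of each panel, with the sample number given by the marker shape, the mean and SD of each group by a black bar, and the range of the brightest Bacillus control over the arrays by a grey band. The 2 groups do not overlap for Hoxa5, Hoxa9 1455626_at, Hoxa10 and Meis1.

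Hoxa5, a homeobox gene from the middle of the HoxA cluster, was the member that fell. Its probe set 1448926_at read 467, 394 and 318 on the knockout-labelled arrays 5, 7 and 8, and 629, 1039 and 855 on the wild-type arrays. All knockout-labelled values lay below all wild-type values, with means of 393 ± 74.5 and 841 ± 205 (SD, n = 3 each), a ratio of 2.14. The log2 difference was -1.05 ± 0.25 (SE, 95% confidence interval -1.58 to -0.52), and limma gave an adjusted p of 0.0331. Within the same-numbered arrays the differences were -0.42, -1.36 and -1.38 for the numbers 5, 7 and 8, so the wild-type array 5 was the one nearest to the other group. The call depended on which arrays were in the fit, but the size of the difference did so less. With 1 array left out, the difference lay between -1.24 and -0.89. Such fits also called fewer probe sets lower over all tested, 90 to 282 against 297. The adjusted p of Hoxa5 ranged from 0.023 without wild-type array 5 to 0.162 without wild-type array 7. It was also above the threshold without knockout-labelled array 7 (0.09), knockout-labelled array 8 (0.141) or wild-type array 8 (0.0611).

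Hoxa9 was read by a bright and a dimmer probe set, which behaved differently. HOXA9 protein supports stem cell self-renewal and is the Hox factor most often tied to acute myeloid leukaemia. The bright probe set 1455626_at gave 11278, 10715 and 10436 on the knockout-labelled arrays and 16220, 15681 and 13942 on the wild-type arrays. The groups did not overlap, and the means were 10810 ± 429 and 15281 ± 1190 (SD, n = 3 each), 1.41-fold higher in wild type. Its log2 difference of -0.50 ± 0.13 (SE, 95% confidence interval -0.78 to -0.21) was close to the threshold, with an adjusted p of 0.0594 in limma and 0.0295 in the blocked fit. The differences within numbers 5, 7 and 8 were -0.52, -0.55 and -0.42, the most even of the members with separate groups. In the fits that each left out 1 array, the adjusted p was between 0.059 and 0.198.

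The dimmer Hoxa9 probe set 1421579_at showed no such separation. It gave 610, 719 and 587 on the knockout-labelled arrays and 719, 765 and 483 on the wild-type arrays, so the lowest value of all was a wild-type one. The log2 difference was -0.02 ± 0.23 (SE, n = 3 per group, 95% confidence interval -0.51 to 0.48, limma adjusted p = 0.983), and its sign turned with median centring (0.04) or quantile normalization (0.02). Within each array, the bright probe set exceeded the dimmer one by 4.17, 3.87 and 4.12 log2 units on the knockout-labelled arrays and by 4.46, 4.33 and 4.81 on the wild-type arrays. The means of this gap differed by -0.48 between the groups, and the exact two-sided permutation test gave p = 0.1, the smallest that 3 against 3 arrays allow (0.5 after adjustment over the 5 probe set pairs of members). Which transcripts each probe set detects was not analysed here.

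Hoxa10, whose product acts in stem cell and myeloid growth, was dimmer. Probe set 1431475_a_at read 272, 147 and 157 on the knockout-labelled arrays and 341, 341 and 375 on the wild-type arrays. All 3 wild-type values were above all knockout-labelled ones, and the means were 192 ± 69.4 and 352 ± 19.8 (SD, n = 3 each), 1.84-fold apart. The brightest of the array's 27 control probe sets for Bacillus transcripts (the bacterial controls), used here as the bound for dim signals, lay between 100.2 and 162, and Hoxa10 exceeded it on all 3 wild-type arrays but on only 2 of the 3 knockout-labelled arrays. The log2 difference of -0.87 ± 0.29 (SE, 95% confidence interval -1.50 to -0.24) did not pass the test in limma, with an adjusted p of 0.12 and of 0.0852 with the block. Within numbers 5, 7 and 8 it was -0.31, -1.13 and -1.18, again smallest for number 5. Leaving out 1 array at a time gave adjusted p-values from 0.0706 without knockout-labelled array 5 to 0.295 without knockout-labelled array 8.

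Hoxa7 was not above these bacterial controls on any array. Its probe set 1449499_at gave 39.6, 33.3 and 31.5 on the knockout-labelled arrays and 29.2, 52.7 and 63.3 on the wild-type arrays. The groups overlapped at a level that was not well above background, and no fold is given.

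Hoxb4, a gene of the HoxB cluster known for expanding blood stem cells when it is overexpressed, did not pass the test. Probe set 1460379_at read 292, 225 and 264 on the knockout-labelled arrays and 235, 370 and 365 on the wild-type arrays, and wild-type array 5 fell among the other group. The means were 261 ± 33.6 and 323 ± 76.6 (SD, n = 3 each), with a log2 difference of -0.27 ± 0.28 (SE, 95% confidence interval -0.87 to 0.32, limma adjusted p = 0.65). The interval reaches beyond the size measured for Hoxa9, so a change of that size in Hoxb4 remains possible. The other Hoxb4 probe set, 1451761_at, exceeded the controls on 4 arrays and was too dim to test. It gave 113, 311 and 173 on the knockout-labelled arrays and 183, 73.6 and 233 on the wild-type arrays, with overlapping groups.

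Meis1, the TALE partner that forms complexes with HOXA9 and PBX proteins, was lower on every knockout-labelled array but was not called. Probe set 1450992_a_at read 1782, 1575 and 1881 on the knockout-labelled arrays and 2247, 2200 and 2294 on the wild-type arrays. The means were 1746 ± 156 and 2247 ± 46.9 (SD, n = 3 each), 1.29-fold apart, and the groups did not overlap. The log2 difference was -0.36 ± 0.17 (SE, 95% confidence interval -0.73 to 0.00), the unadjusted p 0.0501 and the adjusted p 0.255 in limma. Within numbers 5, 7 and 8 it was -0.33, -0.48 and -0.28. With any 1 array left out, the adjusted p lay between 0.33 and 0.491.

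The Pbx genes, which encode the partners that contact HOX proteins directly, showed no call and no separation of the groups. Pbx2 probe set 1418894_s_at gave 1547, 1569 and 1561 on the knockout-labelled arrays and 1206, 1635 and 1481 on the wild-type arrays, a log2 difference of 0.12 ± 0.18 (SE, n = 3 per group, 95% confidence interval -0.27 to 0.52). The knockout-labelled values were closely spaced and lay inside the wild-type range. Probe set 1449261_at of the same gene gave 838, 1462 and 1473 against 1119, 1365 and 1606, a log2 difference of -0.15 ± 0.24 (95% confidence interval -0.66 to 0.37), which turned to 0.12 without knockout-labelled array 5. Probe set 1418893_at gave 301, 260 and 277 against 368, 299 and 317, a log2 difference of -0.22 ± 0.25 (95% confidence interval -0.75 to 0.32), and here knockout-labelled array 5 overlapped the lowest wild-type array. Between these 3 probe sets, taken pair by pair within arrays, the exact permutation p-values for a difference between groups were 0.2, 0.6 and 0.7 before adjustment.

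Pbx3, the family member most often co-expressed with Hoxa9 in leukaemia, was close to equal in the 2 groups. Probe set 1421193_a_at read 361, 361 and 253 on the knockout-labelled arrays and 287, 346 and 298 on the wild-type arrays, and both the highest and the lowest values were knockout-labelled. The means were 325 ± 62.2 and 310 ± 31.5 (SD, n = 3 each), with a log2 difference of 0.05 ± 0.26 (SE, 95% confidence interval -0.50 to 0.61, limma adjusted p = 0.945). Its sign turned to -0.03 without knockout-labelled array 5 or 7.

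**Figure D2:**
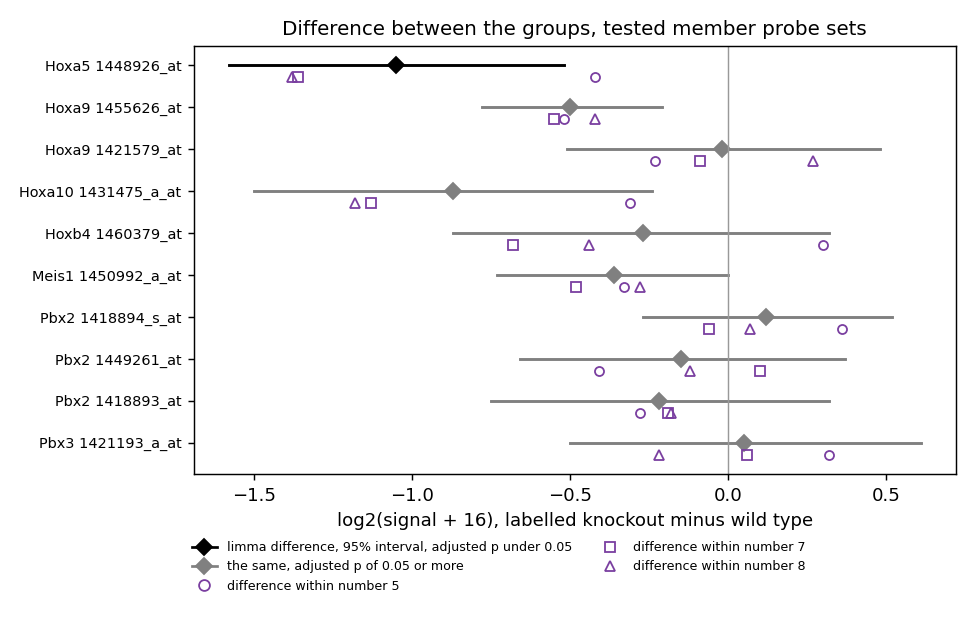
Log2 difference, labelled knockout minus wild type, of each tested member probe set with its 95% confidence interval from limma, and the differences within the numbers 5, 7 and 8 as separate markers. The interval of Hoxa5 runs from -1.58 to -0.52, that of Meis1 ends at 0.00, and those of Hoxb4, Pbx2 and Pbx3 span 0.

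**Figure D3:**
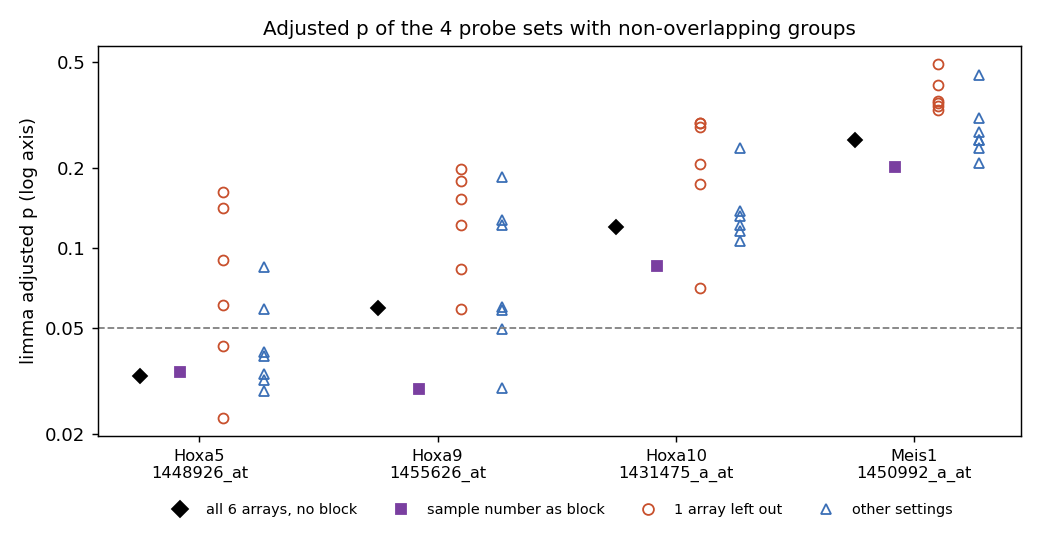
Adjusted p from limma (log axis) of the 4 member probe sets whose groups do not overlap, with all 6 arrays, with a block for the number, with 1 array left out at a time and under the other settings, and the 0.05 threshold as a dashed line. Hoxa5 lies on both sides of the line, Hoxa9 crosses it with the block (0.0295), and Hoxa10 and Meis1 stay above it in every fit shown.

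The promoters of Hoxa5, Hoxa9 and Hoxa10 are shown because Gfi1 binds the core AATC and each of these HoxA genes had a probe set with separate, lower values. Each line gives the 250 bases before the transcription start, 5′ to 3′ on the strand of the gene, from RefSeq on GRCm38.p6, with AATC or its complement GATT in capitals. The windows are chr6:52204588-52204837 for Hoxa5, chr6:52227371-52227620 for Hoxa9 and chr6:52234940-52235189 for Hoxa10, all on the minus strand, and the last lies inside the annotated span of Hoxa10.
Hoxa5: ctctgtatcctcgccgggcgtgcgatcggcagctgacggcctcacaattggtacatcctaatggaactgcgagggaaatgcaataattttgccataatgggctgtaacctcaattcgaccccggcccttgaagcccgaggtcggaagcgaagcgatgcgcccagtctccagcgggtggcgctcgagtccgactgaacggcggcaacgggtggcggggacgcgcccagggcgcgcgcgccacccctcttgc
Hoxa9: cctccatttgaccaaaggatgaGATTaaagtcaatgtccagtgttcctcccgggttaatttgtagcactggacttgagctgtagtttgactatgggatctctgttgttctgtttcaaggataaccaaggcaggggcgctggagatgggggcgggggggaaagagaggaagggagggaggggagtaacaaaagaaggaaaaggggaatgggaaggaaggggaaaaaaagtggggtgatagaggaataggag
Hoxa10: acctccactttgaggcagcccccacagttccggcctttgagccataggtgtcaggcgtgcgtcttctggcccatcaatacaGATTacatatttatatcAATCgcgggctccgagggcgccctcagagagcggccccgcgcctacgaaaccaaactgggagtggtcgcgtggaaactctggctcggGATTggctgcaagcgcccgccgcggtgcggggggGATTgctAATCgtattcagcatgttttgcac

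The window of Hoxa5, the called member, holds 0 matches to AATC on either strand. That of Hoxa9 holds 1, at 228 bases before the start. The Hoxa10 window holds 5, at 169, 152, 65, 31 and 24 bases before the start, and the window of the other annotated Hoxa10 start, chr6:52240855-52241104, holds 1. Of 32851 mouse promoter windows of the same length, 69.0% hold at least 1 such match and 7.04% hold 4 or more, so a single match is common. Windows were matched for 7 of the 8 members. That of Hoxa7 holds 1, and those of Hoxb4, Meis1 and Pbx2 hold 0. The Meis site TGACAG, in 15.9% of all windows, and the Hox-Pbx site TGATTNAT, in 2.82%, were found in 0 of the 8 member windows, both strands searched. AATC can overlap a TGATTNAT site on the other strand. These are matches of letters and say nothing of binding.

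The HoxA cluster lies on chromosome 6, and the lower values were not shared by every gene with a readable signal. Hoxa5 (chr6:52201754-52204587), Hoxa9 (chr6:52223097-52227370) and Hoxa10 (chr6:52231197-52240854) had separate groups. Hoxa11 (chr6:52242105-52245810), the next gene after Hoxa10, gave 278 ± 66.0 on the knockout-labelled and 286 ± 75.7 on the wild-type arrays (SD, n = 3 each), a log2 difference of -0.03 ± 0.29 (SE, limma adjusted p = 0.973). The difference between neighbouring genes was not tested. Hoxa2, on the far side of Hoxa5, gave 94.2, 51.6 and 66.7 against 183, 102 and 126, but it exceeded the bacterial controls on only 2 arrays. Genes are ordered here by lower coordinate, as the annotated span of Hoxa3 (chr6:52169059-52213067) runs past that of Hoxa5. Both probe sets of Hoxa3 and both of Hoxa4, the next genes after Hoxa2 in this order, overlapped, with differences from -0.66 to 0.64. Their signals were above the controls on 3 arrays for 1 Hoxa3 probe set and on 0 for the other 3. Hoxa13 overlapped too, at -0.04. Hoxa2, Hoxa3, Hoxa4 and Hoxa13 were all too dim to test.

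**Figure D4:**
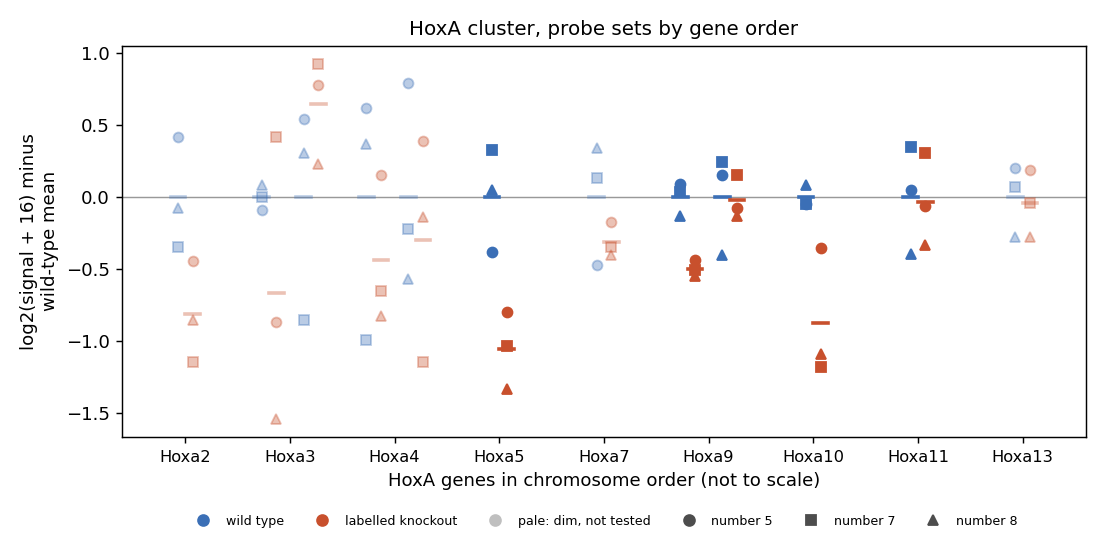
Log2(signal + 16) of each HoxA probe set on each array, relative to the wild-type mean of that probe set, with the HoxA genes read by a probe set in chromosome order (not to scale) and probe sets too dim to test in pale colours. Hoxa5, Hoxa10 and 1 of the 2 Hoxa9 probe sets have all knockout-labelled arrays below the wild-type arrays, while Hoxa11 overlaps.

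The rest of the Hox family was mostly dim in these cells. Of 31 Hox genes with a probe set of 1 symbol, 6 exceeded the bacterial controls on all 6 arrays (Hoxa5, Hoxa9, Hoxa11, Hoxb2, Hoxb4 and Hoxc6) and 12 on 0 arrays, and 7 had a tested probe set. Among 33 Hox genes other than the members, 26 had a probe set, 3 were tested and 0 were called, with a median difference of -0.03. Besides Hoxa11 these were Hoxb2 at -0.41 ± 0.38 (SE, limma adjusted p = 0.613) and Hoxc6 at 0.13 ± 0.27 (0.858). Of 8 further TALE class or PBX-binding genes, 8 had a probe set, 3 were tested and 0 were called. Pbxip1, which encodes a PBX-interacting protein, stood at -0.49 ± 0.22 (SE, limma adjusted p = 0.231), Pknox1, a PBX partner of the MEIS family, at -0.46 ± 0.31 (0.444) and Tgif2 at -0.14 ± 0.20 (0.774). Pbx4 and Meis2 were not above the controls on any array.

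Genes that maintain Hox expression were read next. MLL complexes (Kmt2a and its partners) keep Hox genes active, and Cdx factors switch them on in the embryo. Of 16 such genes 11 were tested and 0 called, 8 of them below 0 with a median of -0.14. Kmt2a itself gave 2086 ± 529 on the knockout-labelled and 3572 ± 1193 on the wild-type arrays (SD, n = 3 each), with overlapping groups and a log2 difference of -0.75 ± 0.26 (SE, limma adjusted p = 0.129), on its brightest probe set. Its other tested probe set, 1452377_at, gave 357, 429 and 434 against 636, 702 and 566, with separate groups, at -0.62 ± 0.22 (0.135). Its fusion partner gene Mllt3 gave 342 ± 51.2 against 590 ± 107, with separate groups, at -0.75 ± 0.24 (0.1). The MLL tether Psip1 stood at -0.52 ± 0.18 (0.12). Leaving out wild-type array 5 gave 1 call lower in this list. Cdx1 and Cdx2 were not above the controls on any array.

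Polycomb complexes hold Hox genes silent. Of 20 Polycomb genes 15 were tested and 0 were called, 12 of them below 0 with a median of -0.13, against -0.01 over all tested probe sets. The nearest to the threshold were Jarid2 at -0.64 ± 0.19 (SE, limma adjusted p = 0.0841), the methyltransferase gene Ezh1 at -0.62 ± 0.19 (0.0975) and the ubiquitin ligase gene Rnf2 at -0.60 ± 0.19 (0.101). Bmi1, needed for stem cell self-renewal, stood at -0.34 ± 0.21 (0.406). Without wild-type array 8, 1 gene of this list was called lower.

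Of 20 genes known as targets of HOXA9 or MEIS1, 16 were tested, 3 fell and 0 rose, with 11 below 0 and a median of -0.21. Hlf, a stem cell transcription factor gene, gave 872 ± 111 on the knockout-labelled and 2110 ± 217 on the wild-type arrays (SD, n = 3 each), a log2 difference of -1.26 ± 0.19 (SE, limma adjusted p = 0.00268). Flt3, the receptor gene of early lymphoid-primed progenitors, gave 2299 ± 302 against 5316 ± 1169, at -1.19 ± 0.19 (0.00515). Mef2c, a factor of lymphoid and myeloid progenitors, gave 2806 ± 291 against 6518 ± 2218 on its brightest probe set, at -1.15 ± 0.23 (0.0177). Of its dimmer tested probe sets, 1451507_at was also called lower, at -1.13 ± 0.28 (0.0456). Probe sets 1451506_at (-0.68 ± 0.26, 0.166), 1421027_a_at (-0.40 ± 0.27, 0.454) and 1421028_a_at (-0.31 ± 0.29, 0.616) were not called. The calls of Hlf and Flt3 were kept in all 14 alternative fits, with adjusted p-values of at most 0.0251 and 0.0333. That of the brightest Mef2c probe set was lost in 6 of the 14, with an adjusted p of up to 0.0896. Among these were the fits without the variance trend (0.0699) and with no filter (0.0648). The others left out knockout-labelled array 5 or 8 or wild-type array 5 or 7. These 6 fits left 2 calls in the list. The brightest probe set of Sox4, a factor gene of progenitors, stood at -0.58 ± 0.21 (0.145). A dimmer one, 1419156_at, gave 383, 208 and 277 on the knockout-labelled and 658, 627 and 502 on the wild-type arrays and passed the test at -1.03 ± 0.26 (SE, limma adjusted p = 0.0479); this call was lost without the trend, with no filter, with median centring or quantile normalization, and without knockout-labelled array 7 or 8 or wild-type array 5 or 7 (up to 0.178). It is not in the count of the list, which takes 1 probe set per gene. Hlf also stands on the stem cell list and Flt3 on the lymphoid list described next, so these counts are not separate.

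Markers of cell types differed between the same arrays, and their part in the Hox and Meis1 values was not tested. In sorted bulk cells, fewer cells of a type and less RNA per cell cannot be told apart. Of the sort markers, Kit was called lower on its brightest probe set (-0.71 ± 0.17, SE, limma adjusted p = 0.0381). The dimmer Kit probe set 1415900_a_at had separate groups, also lower, but was not called (-0.57 ± 0.28, 0.286). Ly6a, which encodes Sca-1, was not analysed here. Ptprc was listed with the sort markers but is not part of the LSK definition given above. It was not called (-0.47, limma adjusted p = 0.0956), but the block called it lower (0.0399). The Kit call was lost in 8 of 14 alternative fits: without any 1 of 5 arrays, all but wild-type array 5 (adjusted p of up to 0.132), with median centring (0.103), without the trend (0.118) and with no filter (0.0789). The summed signal of stem cell genes was 19762 to 25856 on the knockout-labelled and 34916 to 38971 on the wild-type arrays, with 4 of 14 tested genes called lower and 0 higher (1 higher with the block, Thy1). The 4 were Ndn, Hlf, Egr1 and Mycn, and Egr1 was the brightest gene of the sum. The calls of Egr1 and Mycn were lost in 5 and 9 of 14 alternative fits. Procr, Mecom, Slamf1, Tek and Gata2 overlapped between the groups and were not called. The summed signal of lymphoid priming genes was 51639 to 82222 against 85052 to 112730, with 7 of 9 called lower. Its brightest genes were Ighm (43621 against 47643 on average, overlapping, -0.16, limma adjusted p = 0.672) and Dntt (11531 against 31640, -1.53, 0.0162). The dimmer Ighm probe sets 1427870_x_at (1.56 ± 0.24, SE, 0.00321) and 1425247_a_at (2.35 ± 0.45, 0.0141) were called higher. They are not in the count, and the other tested Ighm probe sets were not called. Granulocyte-monocyte progenitor genes gave 75636 to 84382 against 26797 to 54129, with 8 of 10 called higher and 0 lower.

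Sums for some markers of more mature cells also differed. Neutrophil markers summed to 8621 to 18043 on the knockout-labelled and 22967 to 45699 on the wild-type arrays, with 5 of 11 called lower (7 with the block) and 1 higher. Monocyte and macrophage markers summed to 29412 to 32223 against 20158 to 24687, with 4 of 11 called higher. Erythroid markers summed to 14031 to 14742 against 23649 to 38528, with 1 of 9 called lower. The call was Car2, with means of 4224 ± 850 and 14028 ± 2617 (SD, n = 3 each), at -1.73 ± 0.19 (SE, limma adjusted p = 0.000446). Ermap gave 10075 on wild-type array 8, against 1842 and 2307 on wild-type arrays 5 and 7. Epor (0.05), Slc4a1 (0.08) and Klf1 (-0.28) overlapped between the groups and were not called, and 7 of the 9 genes were below 0. The T and NK cell markers summed to 4201 to 4383 against 3055 to 3379, with 0 of 3 called (1 higher with the block, Thy1, adjusted p = 0.0431 in limma). This sum was led by Nkg7 (means 2460 against 1741) and by Thy1 (946 against 521), which is also on the stem cell list. Of the dim Cd3 genes, the knockout-labelled mean was lower for Cd3g (86.3 against 141) and Cd3d (59.5 against 134) and higher for Cd3e (118 against 80.9). Of the T and NK cell markers, Cd4 and Cd8b1 were not above the controls on any array. Nkg7, Gzma and Thy1 were above them on all 6 arrays, Cd8a on up to 4, Cd3e and Cd3g on 2 and Cd3d on 1. Sums overlapped for B cell markers (2065 to 3129 against 2585 to 3648, 0 called and 1 lower with the block), megakaryocyte markers (3474 to 5507 against 3171 to 5128) and lineage antigens (822 to 1226 against 1063 to 1377). Among the B cell markers, Pax5 was not above the controls on any array. Cd79a, Cd79b, Ms4a1, Blnk, Igll1, Vpreb3 and Cd22 each had a probe set above them on all 6 arrays, and Vpreb1 was above them on 5. The counts of calls depend on single arrays and on the fit. Without the trend, 3 progenitor genes were called higher, 4 lymphoid, 2 stem cell and 3 neutrophil genes lower, and with no filter these counts were 3, 4, 2 and 2, with 2 monocyte genes higher. Leaving out knockout-labelled array 8 gave 3 calls higher for progenitor genes, 4 lower for lymphoid, 2 lower for stem cell, 3 lower for neutrophil and 2 higher for monocyte genes. Leaving out knockout-labelled array 7 gave 4 progenitor, 2 stem cell and 3 neutrophil calls, wild-type array 7 gave 4 progenitor, 4 lymphoid, 2 stem cell and 3 neutrophil calls, and wild-type array 5 gave 4 progenitor, 3 neutrophil and 2 erythroid calls. Without knockout-labelled array 5 there were 2 monocyte calls, and without wild-type array 8 there was 1 B cell marker called lower.

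The genes whose profile over the 6 arrays was most like that of each member are given here as a description. Likeness was measured by the root mean square difference of mean-centred log2 values. These values were not scaled to equal spread, so a larger distance need not mean a less similar shape. For Hoxa9 1455626_at the nearest genes were Ssbp2 (0.052), Gpatch8 (0.055) and Dlg1 (0.055). Those of Meis1 were Sec62 (0.024), Mkrn1 (0.053) and Lmo2 (0.054), the last a stem cell transcription cofactor gene that is also on the target list. Hoxa5 had more distant neighbours, Il12a (0.098), Poli (0.112) and Xist (0.12), and so had Hoxa10, with Lrrfip1 (0.1), Tsc22d1 (0.102) and Atxn7l1 (0.112). Xist is the RNA of the inactive X chromosome, read in female cells, and it was itself called lower at this probe set, 1427263_at, with 1236, 967 and 1021 on the knockout-labelled and 1654, 3021 and 2322 on the wild-type arrays (-1.07 ± 0.22, SE, limma adjusted p = 0.0202). With 1 array left out its adjusted p was 0.00731 to 0.101, above the threshold without knockout-labelled array 7 or 8 or wild-type array 7, and it was 0.0606 without the trend and 0.0599 with no filter. The brighter Xist probe sets 1427262_at (-0.50 ± 0.14, adjusted p = 0.0615, 0.0342 with the block) and 1436936_s_at (-0.56 ± 0.20, 0.136) were not called, and all 3 were above the bacterial controls on all 6 arrays. Of the Y-linked genes, the 6 probe sets of Eif2s3y, Kdm5d and Uty were too dim to test. That of Eif2s3y was above the controls on 0 arrays, those of Kdm5d on 0, 2 and 5, and those of Uty on 0 and 4. The part of sex in the Hox values was not tested. Hoxb4 was nearest to Ahctf1 (0.056), Kcnab1 (0.059) and Rnf44 (0.06). Pbx2 1418894_s_at was nearest to Fam174b (0.042), Fam32a (0.048) and Rdh10 (0.054), and Pbx3 to Fem1a (0.048), Cic (0.052) and Gpt (0.053). In 0 of these 21 cases was another member among the 3 nearest genes. Only 10 of the 13575 tested probe sets are of members, so this count does not show whether members vary together.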

How the data were processed

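LSK cells of 3 Gfi1 knockout and 3 wild-type samples were each read on 1 single-colour Affymetrix array. The authors deposited 1 linear intensity per array for each probe set, made with MAS5 per the submitters' processing notes (version not given in the sources used here). The columns came already scaled, with a trimmed mean of 1000.33 to 1000.37, and array medians were 286 to 335. The number of arrays limits the precision.

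Of 22690 probe sets, 64 controls were left out. Of the other 22626, 20380 had 1 gene symbol in the platform annotation, and only these were named. The deposited intensities were taken to log2(signal + 16) without normalizing them again. The 60% with the highest mean over the 6 arrays, 13575 probe sets, were fitted with limma 3.58.1 in R 4.3.3 (lmFit, eBayes with trend, two-sided, Benjamini-Hochberg, threshold 0.05), after the scripts were tested on simulated data. A listed gene is represented by its brightest tested probe set. Marker sums add 1 signal per listed gene and are led by the brightest genes. Same-numbered arrays deviated together (correlations of 0.159, 0.168 and 0.238 across probe sets, against -0.134 to -0.0307 for different numbers). Differences within numbers and a fit with the number as a block are therefore given too. The main fit, which gave the adjusted p-values not marked otherwise, had no block and so ignored this pairing. The labels do not say what a number marks.

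The text names every member probe set, Gfi1, up to 4 genes per list with the smallest p, defining markers below the controls, and the 3 genes nearest to each member. Hoxa2, Hoxa3, Hoxa4, Hoxa13, Thy1 and the Y-linked genes were added after their values were seen. The same holds for Dntt, Ighm, Ermap, Epor, Slc4a1 and Klf1 and for the further probe sets of Sox4, Kmt2a, Mef2c, Kit and Xist. Also added then were the B, T and NK cell markers above the controls and the stem cell genes with overlapping groups. Some genes are not reported here. The members and the lists were chosen with earlier results of these data known, from general knowledge of blood cells. Promoters and positions come from RefSeq (GRCm38.p6). Alternatives were the pseudocount, the filter, the normalization, the variance trend, the block and each array left out.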

Additional observations from a re-analysis of the deposited data

How the results depend on the processing

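Of 136 values of member differences and alternatives, 118 kept their direction and their side of the threshold, 9 changed sign, 6 lost and 3 gained the call. The count of member probe sets called lower (1 in the fit described) was 2 in the brightest 40%, with quantile normalization and with the replicate block, 0 without the trend or with no filter, and 0 to 1 with 1 array left out. Hoxa5 lost its call without the trend (0.0592) and with no filter (0.0851), and Hoxa9 1455626_at gained one in the brightest 40% (0.0498) and with quantile normalization (0.0299). The block changed no other member call. Over all probe sets, calls higher (196) were 57 without the trend, 69 with no filter and 320 with the block, and 34 to 266 with 1 array left out. Calls lower (297) were 124, 119 and 479 in the same fits, 193 with median centring, and 90 to 282 with 1 array left out. The sign of Hoxa9 1421579_at turned with median centring (0.04), quantile normalization (0.02) and in 4 fits with 1 array left out (-0.22 to 0.11 over all 6). Differences with 1 array left out ran from -0.28 to 0.12 for Pbx2 1449261_at and from -0.03 to 0.21 for Pbx3. The within-array difference between Pbx2 1449261_at and 1418893_at ran from -0.14 to 0.39, in fits added after the data were seen. All of these sign changes were in values that did not pass the test; their cause was not tested. Median centring moved the median of all tested probe sets from -0.01 to 0.05. Depth is not a measure here; signals near the bacterial controls (Hoxa7, Hoxa10, Hoxb4 1451761_at) are limited by background.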
